A study of Mus musculus with 12 samples.

Results

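The genes described here set how much pyruvate the heart sends into its mitochondria and on to acetyl-CoA. They are the pyruvate dehydrogenase kinases Pdk1, Pdk2, Pdk3 and Pdk4, the pyruvate dehydrogenase phosphatases Pdp1 and Pdp2, and the mitochondrial pyruvate carrier subunits Mpc1 and Mpc2. They were chosen by symbol and are 8 of the 24061 genes listed in each count table, and all 8 passed the filter on low counts. RNA was measured in hearts of 6 HKII+/- mice, labelled heterozygous for hexokinase II (gene Hk2), and of 6 HKII+/+ mice. All were male C57BL/6J animals between 2 and 4 months old, fed chow. The labels do not say how the allele was made, in which cells it is lost or which part of the heart was taken. A note by the submitters calls 1 library of each genotype a possible outlier: HKII+/- replicate 11 and HKII+/+ replicate 13. Results are therefore given for all libraries (6 in each genotype) and for the unmarked ones (5 in each).

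Pyruvate made by glycolysis crosses the inner mitochondrial membrane through a carrier built of an Mpc1 and an Mpc2 subunit. In the matrix the pyruvate dehydrogenase complex turns it into acetyl-CoA. The kinases phosphorylate the E1 alpha subunit of that complex and switch it off, and the phosphatases remove the phosphate and switch it on again. In heart muscle Pdk4 is the kinase best known for rising with fasting, fatty acids acting through PPAR receptors, and glucocorticoids, while Pdk2 is the widely expressed form. Hexokinase II starts glycolysis, so the comparison of genotypes asks whether transcripts of this downstream gate differ when the dose of Hk2 is lowered.

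The start regions of Pdk4 and Pdk2 are shown because these kinases made up most kinase transcripts per length, and the spread of log2 CPM between hearts was wider for Pdk4 (SD 0.42) than for Pdk2 (SD 0.12). Each window runs from upstream of the RefSeq start site into the first bases of the transcript, on the minus strand of GRCm38.p6, and is written 5′ to 3′. Pdk4 lies at chr6:5496229-5496528 and Pdk2 at chr11:95041322-95041621. Capitals mark the E-box CACGTG and the CCAAT box, whose letters CCAAT read ATTGG on the other strand.
Pdk4: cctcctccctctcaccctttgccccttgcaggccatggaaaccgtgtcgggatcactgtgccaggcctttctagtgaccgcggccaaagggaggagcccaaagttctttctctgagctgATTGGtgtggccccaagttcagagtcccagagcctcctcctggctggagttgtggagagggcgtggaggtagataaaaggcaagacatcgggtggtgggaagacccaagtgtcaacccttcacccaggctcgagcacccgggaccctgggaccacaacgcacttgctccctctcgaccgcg
Pdk2: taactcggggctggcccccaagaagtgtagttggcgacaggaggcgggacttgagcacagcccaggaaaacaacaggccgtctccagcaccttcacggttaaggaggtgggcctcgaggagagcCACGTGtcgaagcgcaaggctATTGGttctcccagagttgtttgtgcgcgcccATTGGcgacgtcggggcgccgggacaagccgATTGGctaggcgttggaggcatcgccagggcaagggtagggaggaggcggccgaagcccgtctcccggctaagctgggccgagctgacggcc
The Pdk4 window held 1 CCAAT box and no E-box, and the Pdk2 window held 3 CCAAT boxes and 1 E-box. A second RefSeq start of Pdk2 had neither motif in its window. Of 32851 such windows in the genome 37.4% held a CCAAT box and 7.15% an E-box on either strand. The Pdp2 window also held 1 E-box, and 2 CCAAT boxes. CCAAT boxes were also in the windows of Mpc2 (1) and Pdk3 (1) and at 1 RefSeq start of Mpc1 (2). Neither of the windows of Pdk1 held one. None of the windows of the 7 genes in the table (all but Pdp1) held the FOXO motif TGTTTAC (3.65% of all windows), the ERR motif TCAAGGTCA (0.423%) or the DR1 direct repeat that PPAR receptors bind (0.0396%). The hypoxia core ACGTG was present in 19.6% of all windows. It was in the Pdk2 window shown and in that of Pdp2, where it overlaps the E-box, and in that of Pdk3. The window at the second RefSeq start of Pdk2 lacked it, as did both windows of Pdk1. These matches describe the letters in the windows and say nothing of binding.

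Counts summed to between 17263209 and 51556592 per library. Hk2, the targeted gene, measured 256 to 354 CPM in the 5 unmarked HKII+/- libraries, against 471 to 542 CPM in the 5 unmarked HKII+/+ libraries, with no overlap (log2 fold change -0.80, SE 0.09, adjusted p = 0.0165 in edgeR's quasi-likelihood test). That call was lost in 7 of 10 fits that left out 1 library (without HKII+/- replicate 12, 16, 19 or 20 or HKII+/+ replicate 15, 17 or 18; adjusted p up to 0.0951), and the log2 fold change was -0.88 to -0.75 over the 10 fits. With all 12 libraries Hk2 was not called in edgeR (log2 fold change -0.66, SE 0.19, adjusted p = 0.99999), while limma voom with sample quality weights called it (-0.88, adjusted p = 7.66e-05). CPM here are counts scaled to library size with TMM normalisation factors. The library labelled HKII+/- replicate 11 held 568.2 CPM of Hk2, above every unmarked library and under HKII+/+ replicate 13 (652.6 CPM), which goes against its label on the TMM scale. With library totals in place of TMM factors it held 446 CPM, between the other HKII+/- libraries (271 to 351 CPM) and all 6 HKII+/+ libraries (494 to 579 CPM). Both marked libraries stood apart across the transcriptome: 32.1% of tested genes were above all 10 unmarked libraries in both of them, and 38% were below. A list of 8 cardiomyocyte markers, such as Myl2 and Tnnt2, summed to 181085 CPM in replicate 11 and 203817 CPM in replicate 13. Unmarked libraries held 69061 to 94557 CPM. Replicate 11 also held more of the 6 white fat markers (1310 CPM, against 1.47 to 189 CPM in unmarked libraries), of the 8 airway and lung markers (279 CPM, against 0.430 to 1.86 CPM), of the 10 atrial markers (18068 CPM, against 421 to 7732 CPM) and of the 5 smooth muscle markers (2905 CPM, against 261 to 737 CPM). The 8 fibroblast markers were higher in both, at 12636 CPM in replicate 11 and 3952 CPM in replicate 13, against 1003 to 1708 CPM in unmarked libraries. Endothelial markers were also higher in both (1887 and 1766 CPM, against 1348 to 1612 CPM). Skeletal muscle markers were lower in both, at 433 CPM in replicate 11 and 1006 CPM in replicate 13, against 1297 to 2425 CPM in unmarked libraries.

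No kinase, phosphatase or carrier subunit passed the test between HKII+/- and HKII+/+ hearts. With all 12 libraries 0 of the 8 genes had an adjusted p below 0.05 in edgeR's quasi-likelihood test, where 0% of 14107 tested genes did, and 0 had an unadjusted p below 0.05, where 0.262% did. Without the marked libraries 0 of 8 passed, where 0.00707% of 14139 genes did (Hk2 alone), and 0 were at an unadjusted p below 0.05, where 2.8% were. The range of CPM overlapped between the genotypes for all 8 genes in both sets, while it did not for 0.0213% of genes with 12 libraries and 0.474% with 10. DESeq2 and limma voom also called none of the 8. The median log2 fold change of the 8 genes was -0.04 with 12 libraries and -0.03 with 10, beside -0.001 and -0.005 over all genes tested. The fit of 12 libraries had little power to call a gene. Its median SE of the log2 fold change over all tested genes was 0.249, against 0.0891 with 10. Hk2 itself was not called with 12, at an unadjusted p of 0.00542 in edgeR. A p that misses the threshold does not show equality, so the intervals below give the size of difference that the data leave room for.

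**Figure D1:**
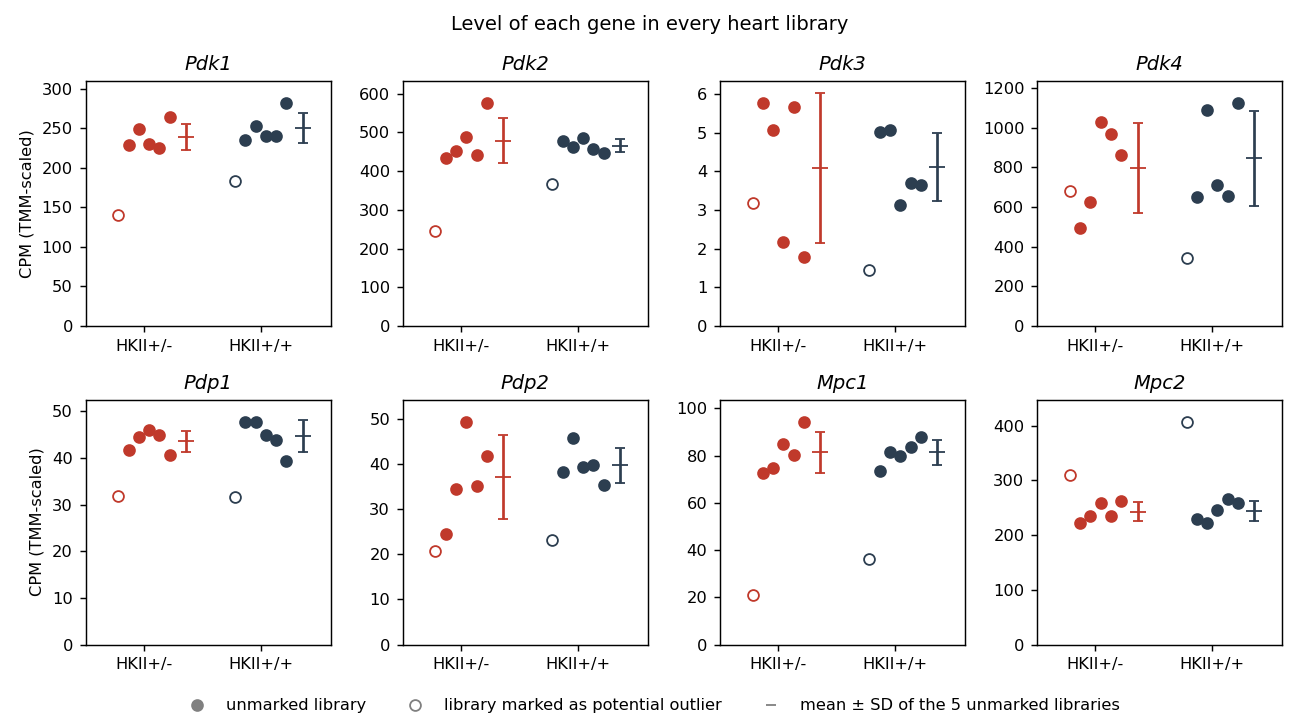
TMM-scaled CPM (vertical axis, from 0) of each of the 8 genes in every library, HKII+/- left and HKII+/+ right of each panel, with the mean ± SD of the 5 unmarked libraries beside the points and the marked libraries as open circles. The genotypes overlap in every panel, and the open circles lie below the filled ones for Mpc1 and above them for Mpc2.

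Pdk4, the fasting-responsive kinase, varied more than 2-fold between HKII+/- hearts, and between HKII+/+ hearts only when marked replicate 13 is counted. It measured 496, 628, 1029, 971 and 862 CPM in HKII+/- replicates 12, 16, 19, 20 and 22, against 649, 1087, 714, 657 and 1123 CPM in HKII+/+ replicates 14, 15, 17, 18 and 21. High and low hearts were found in both genotypes, and the marked libraries held 683 CPM (HKII+/- replicate 11) and 345 CPM (HKII+/+ replicate 13, the lowest of all). The means were 797 ± 228 CPM over unmarked HKII+/- hearts and 846 ± 238 CPM over unmarked HKII+/+ hearts (SD, n = 5 each). The fold of HKII+/- over HKII+/+ was 0.941 (95% interval 0.673 to 1.32; log2 fold change -0.09, SE 0.22), and with 12 libraries 1.02 (0.674 to 1.54; log2 0.03, SE 0.28). Within a genotype the SD of its log2 CPM was 0.42 over the 10 unmarked libraries, larger than that of 98.5% of the 5004 genes with a mean log2 CPM of at least 5, whose median SD was 0.10. Its deposited counts were at least 5262 in every library.

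Pdk2, the widely expressed kinase, overlapped between the genotypes. It measured 433, 453, 488, 442 and 575 CPM in HKII+/- replicates 12, 16, 19, 20 and 22, against 478, 461, 486, 457 and 446 CPM in HKII+/+ replicates 14, 15, 17, 18 and 21. HKII+/- replicate 22 stood above the other 9 unmarked libraries, which lay between 433 and 488 CPM. The marked libraries were lower, at 246 CPM in HKII+/- replicate 11 and 366 CPM in HKII+/+ replicate 13. The fold of HKII+/- over HKII+/+ was 1.03 without them (95% interval 0.918 to 1.15) and 0.979 with them (0.756 to 1.27). Pdk2 overlaps the antisense gene Gm11513, and without a stated strand setting reads of the pair cannot be told apart.

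Pdk1, a kinase known as a target of hypoxia-inducible factor, was the third kinase by level. It measured 225 to 264 CPM in the 5 unmarked HKII+/- libraries, against 235 to 282 CPM in the 5 unmarked HKII+/+ libraries. The fold was 0.958 (95% interval 0.866 to 1.06; log2 fold change -0.06, SE 0.07) without the marked libraries and 0.933 (0.740 to 1.18) with them. The marked libraries held 141 CPM (HKII+/- replicate 11) and 183 CPM (HKII+/+ replicate 13), both under every unmarked library. Pdk1 is a separate row from Pdpk1, a kinase of insulin signalling that also goes by the name PDK1.

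Pdk3 was scarce and differed over 3-fold between unmarked hearts. The deposited counts were 231, 116, 45, 141 and 91 in HKII+/- replicates 12, 16, 19, 20 and 22, against 194, 192, 93, 67 and 80 in HKII+/+ replicates 14, 15, 17, 18 and 21. In CPM these were 5.76, 5.07, 2.18, 5.65 and 1.78 in HKII+/- hearts, against 5.02, 5.06, 3.14, 3.70 and 3.64 in HKII+/+ hearts. The HKII+/- libraries thus held both the highest values (replicates 12, 20 and 16) and the 2 lowest (replicates 19 and 22). The HKII+/+ libraries lay between them, replicate 15 (5.059 CPM) just under HKII+/- replicate 16 (5.070 CPM). The fold of HKII+/- over HKII+/+ was 0.985 (95% interval 0.611 to 1.59) without the marked libraries and 1.07 (0.626 to 1.82) with them, where HKII+/- replicate 11 held 3.19 CPM and HKII+/+ replicate 13 held 1.44 CPM from 22 counts.

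In unmarked libraries the Pdk3 level went with the level of atrial markers. HKII+/- replicates 19 and 22, lowest in Pdk3 of the unmarked libraries, were also the lowest in the 10 atrial markers (such as Myl7, Sln and Bmp10), which summed to 421 and 508 CPM there, against 2682 to 7732 CPM in the other 8 unmarked libraries. Both were also the lowest unmarked libraries in markers of white fat (3.92 and 1.47 CPM, against 22.5 to 189 CPM in the other 8) and smooth muscle (282 and 261 CPM, against 322 to 737 CPM). The same held for mesothelium (38.6 and 27.0 CPM, against 44.8 to 92.1 CPM) and fibroblasts (1182 and 1003 CPM, against 1190 to 1708 CPM). Airway and lung markers were lowest there as well (0.484 and 0.430 CPM, against 0.911 to 1.86 CPM). In the list of 8 cardiomyocyte markers both were the highest unmarked libraries (87153 and 94557 CPM, against 69061 to 82741 CPM). The part of any 1 of these tissues in the Pdk3 level was not tested. Marked HKII+/- replicate 11, highest of all libraries in atrial markers, held 3.19 CPM of Pdk3. In edgeR's quasi-likelihood fit with genotype and the mean log2 CPM of these markers, over the 10 unmarked libraries, Pdk3 was higher by 0.28 log2 units per log2 unit of the marker mean (95% interval 0.21 to 0.34, adjusted p = 0.000199). Genes called higher with the markers were 7.84% of those tested, and genes called lower were 4.55%. Pdk2 (-0.05, adjusted p = 0.0171) and Mpc1 (-0.05, adjusted p = 0.0308) were called lower, each with a slope much smaller than that of Pdk3, and the other 5 genes were not called. Without HKII+/- replicates 19 and 22 the slope of Pdk3 was 0.36 and its call was lost (adjusted p = 0.402). Mpc1 lost its call too (-0.09, adjusted p = 0.622), and Pdk2 turned to 0.03 (adjusted p = 0.860). Pdk3 kept its call without any 1 of the 10 libraries (slopes 0.27 to 0.32). Pdk2 lost its call without replicate 22 (-0.03, adjusted p = 0.489) or replicate 12 (-0.05, adjusted p = 0.0508). Mpc1 lost its call without HKII+/- replicate 12 (-0.04, adjusted p = 0.0847), 16 (-0.05, adjusted p = 0.0801), 19 (-0.05, adjusted p = 0.0518) or 22 (-0.04, adjusted p = 0.364). This fit was chosen after the data were seen. In such bulk tissue fewer atrial cells and less RNA per cell cannot be told apart. Since both of these libraries are HKII+/-, they also touch the genotype comparison: without them and the marked libraries the log2 fold change of Pdk3 was 0.41 (SE 0.16, unadjusted p = 0.0304, adjusted p = 0.706 in edgeR), against -0.02 with them. The log2 fold change of Pdp2 was then -0.34 (SE 0.12, unadjusted p = 0.0165, adjusted p = 0.706), against -0.10 with them, and neither gene was called.

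**Figure D2:**
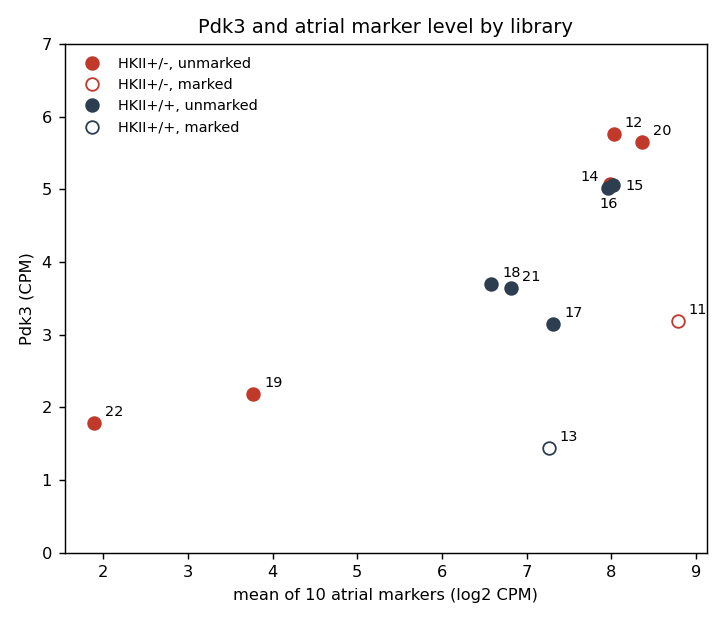
Pdk3 level in CPM (vertical axis) against the mean log2 CPM of 10 atrial markers (horizontal axis), 1 point per library with its replicate number, HKII+/- in red and HKII+/+ in blue. HKII+/- replicates 19 and 22 sit at the lower left with 2.18 and 1.78 CPM, and the marked libraries (open circles) lie below the band of the others.

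The phosphatases Pdp1 and Pdp2 remove the inhibiting phosphate. Pdp1, the calcium-stimulated form, was steady, at 40.7 to 46.0 CPM in the 5 unmarked HKII+/- libraries, against 39.3 to 47.7 CPM in the 5 unmarked HKII+/+ libraries. Its fold was 0.975 (95% interval 0.892 to 1.07) without the marked libraries and 0.980 (0.807 to 1.19) with them. Pdp2, the insulin-responsive form, measured 24.4, 34.5, 49.3, 35.1 and 41.8 CPM in HKII+/- replicates 12, 16, 19, 20 and 22, against 38.1, 45.7, 39.3, 39.8 and 35.2 CPM in HKII+/+ replicates 14, 15, 17, 18 and 21. Its HKII+/- values spanned a range wider than, and enclosing, that of HKII+/+. The fold of Pdp2 was 0.932 (95% interval 0.745 to 1.17; log2 fold change -0.10, SE 0.15) without the marked libraries and 0.930 (0.669 to 1.29) with them. Its within-genotype SD of 0.28 log2 units exceeded that of 96.4% of genes at a mean log2 CPM of at least 5, whereas that of Pdp1, 0.10, exceeded 45.1%. In the marked libraries both phosphatases were under every unmarked library, Pdp1 at 31.9 CPM and Pdp2 at 20.8 CPM in HKII+/- replicate 11, and Pdp1 at 31.6 CPM and Pdp2 at 23.2 CPM in HKII+/+ replicate 13.

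**Figure D3:**
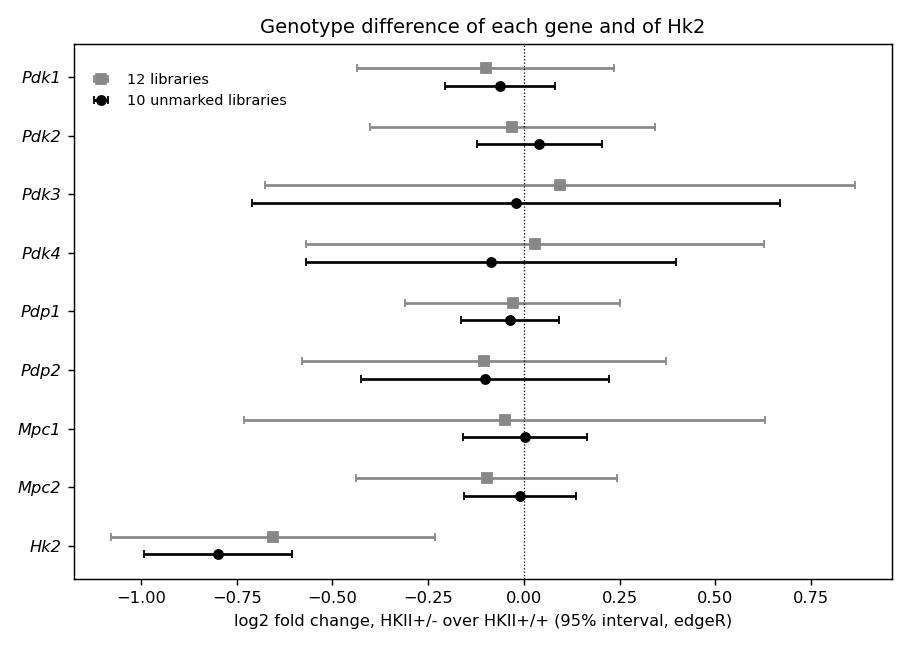
Log2 fold change of HKII+/- over HKII+/+ (horizontal axis, points with 95% intervals from edgeR) for the 8 genes and for Hk2, with all 12 libraries (grey squares) and with the 10 unmarked ones (black circles). The intervals of all 8 genes include 0 in both sets, while Hk2 lies at -0.66 and -0.80.

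The carrier subunits Mpc1 and Mpc2 were nearly level between the genotypes in unmarked libraries. Mpc1 measured 72.7, 74.8, 84.7, 80.2 and 94.3 CPM in HKII+/- replicates 12, 16, 19, 20 and 22, against 73.7, 81.3, 79.7, 83.8 and 87.9 CPM in HKII+/+ replicates 14, 15, 17, 18 and 21. Mpc2 measured 222, 236, 259, 236 and 262 CPM in the same HKII+/- replicates, against 230, 222, 247, 266 and 259 CPM in the HKII+/+ replicates. The values interleave for both subunits. The fold of HKII+/- over HKII+/+ was 1.002 for Mpc1 (95% interval 0.895 to 1.12) and 0.993 for Mpc2 (0.897 to 1.10). With the marked libraries the intervals widened to 0.603 to 1.55 around 0.965 for Mpc1, and to 0.739 to 1.18 around 0.935 for Mpc2. Mpc1 overlaps the antisense gene 4930506C21Rik, whose counts came to at most 9.99% of those of Mpc1 in any library. Without a stated strand setting, that figure does not bound the antisense reads that may be counted to Mpc1. Mpc2 overlaps Gm37860 on its own strand.

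In the marked libraries the carrier subunits parted. Mpc1 held 20.8 CPM in HKII+/- replicate 11 and 36.3 CPM in HKII+/+ replicate 13, which are 0.257 and 0.450 of the median of the unmarked libraries. Mpc2 held 311 and 407 CPM there, 1.29 and 1.69 of that median. The ratio of Mpc2 to Mpc1 counts, which needs no scaling between libraries, was 14.9 in replicate 11 and 11.2 in replicate 13, against 2.73 to 3.17 in the 10 unmarked libraries of both genotypes. Of the 8 genes, Mpc2 was the only one above all unmarked libraries in both marked ones, where 32.1% of tested genes were, and 5 of the 8 were below (Pdk1, Pdk2, Pdp1, Pdp2 and Mpc1), where 38% were. With library totals in place of TMM factors no gene of the 8 was above, where 19.5% of tested genes were, Mpc2 at 244 and 309 CPM against 237 to 279 CPM in unmarked libraries, and 6 were below, with Pdk4 added, where 51.1% of tested genes were. How the submitters chose the marked libraries is not stated, so marked and unmarked libraries were not tested against each other.

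**Figure D4:**
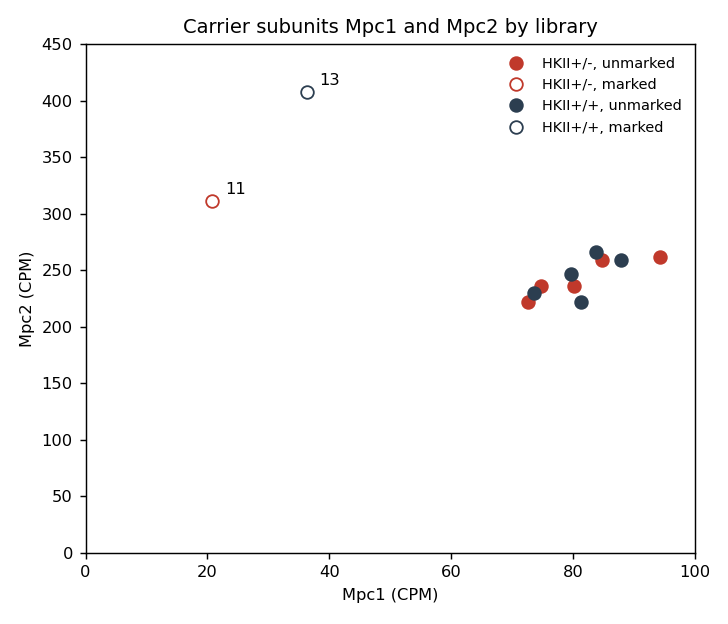
Mpc2 (vertical axis) against Mpc1 (horizontal axis) in CPM, 1 point per library, HKII+/- in red and HKII+/+ in blue, marked libraries as open circles with their replicate numbers. The 10 unmarked libraries form 1 group at 72.7 to 94.3 CPM of Mpc1, and the marked ones lie at the upper left.

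Per length, Pdk4 and Pdk2 made up most of the kinase transcripts. CPM per kb of merged exons averaged 234 ± 63.0 for Pdk4, 149 ± 12.8 for Pdk2, 39.1 ± 3.24 for Mpc1, 33.2 ± 2.30 for Mpc2, 31.5 ± 2.27 for Pdk1, 9.79 ± 0.624 for Pdp1, 6.74 ± 1.20 for Pdp2 and 1.60 ± 0.556 for Pdk3 (SD over the 10 unmarked libraries). Among neighbours in that order, Mpc2 was above Pdk1 in 8 of the 10 libraries and not in the others. Pdk4 was above Pdk2 in 10 of 10, with a ratio of 1.03 to 2.27. That order depends on the length taken for each gene: with the annotated transcript matched to a RefSeq mRNA, Pdk4 was above Pdk2 in 4 of 10. Per kb of that transcript Mpc2 came first of the 8 genes by mean, at 238 CPM per kb, next to Pdk4 at 236, Pdk2 at 210, Mpc1 at 84.9 and Pdk1 at 47.2. The carrier subunits turned as well, Mpc1 being above Mpc2 per kb of merged exons in 10 of 10 libraries and in 0 of 10 per kb of the RefSeq-matched transcript. Merged exons of Mpc2 span 7.344 kb and its RefSeq-matched transcript 1.025 kb, so which carrier subunit is higher per length cannot be settled from gene counts. Pdk1 was above Pdk3, Pdk2 above Pdk1, and Pdp1 above Pdp2 in all 10 libraries with both lengths.

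Shares within a family do not depend on how libraries are scaled, and none differed between the genotypes by the exact test. The Pdk4 share of kinase transcripts per kb of merged exons was 54.4% ± 7.05 in HKII+/- and 56.3% ± 6.84 in HKII+/+ hearts (SD, n = 5 each), and single libraries lay between 45.6% and 64.2%. The Pdk2 share was 37.5% ± 5.51 in HKII+/- and 35.6% ± 6.11 in HKII+/+ hearts. Pdk1 held 7.70% ± 1.49 in HKII+/- against 7.71% ± 0.755 in HKII+/+ hearts, and Pdk3 held 0.421% ± 0.249 in HKII+/- against 0.386% ± 0.0960 in HKII+/+ hearts. Pdp1 made up 60.3% ± 5.78 of phosphatase transcripts in HKII+/- and 58.7% ± 1.63 in HKII+/+ hearts. Mpc1 made up 54.1% ± 1.21 of carrier transcripts in HKII+/- and 54.0% ± 1.53 in HKII+/+ hearts. With the RefSeq-matched transcript lengths the Mpc1 share was lower, 25.4% to 27.8% in HKII+/- and 25.2% to 28.2% in HKII+/+ hearts. Exact two-sided permutation p-values over 252 splits were 0.627 for Pdk4, 0.579 for Pdk2, 0.992 for Pdk1, 0.802 for Pdk3, 0.611 for Pdp1 and 0.841 for Mpc1, and 0.992 for each after Benjamini-Hochberg adjustment over the 6 shares. The smallest p these splits allow is 0.00794.

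**Figure D5:**
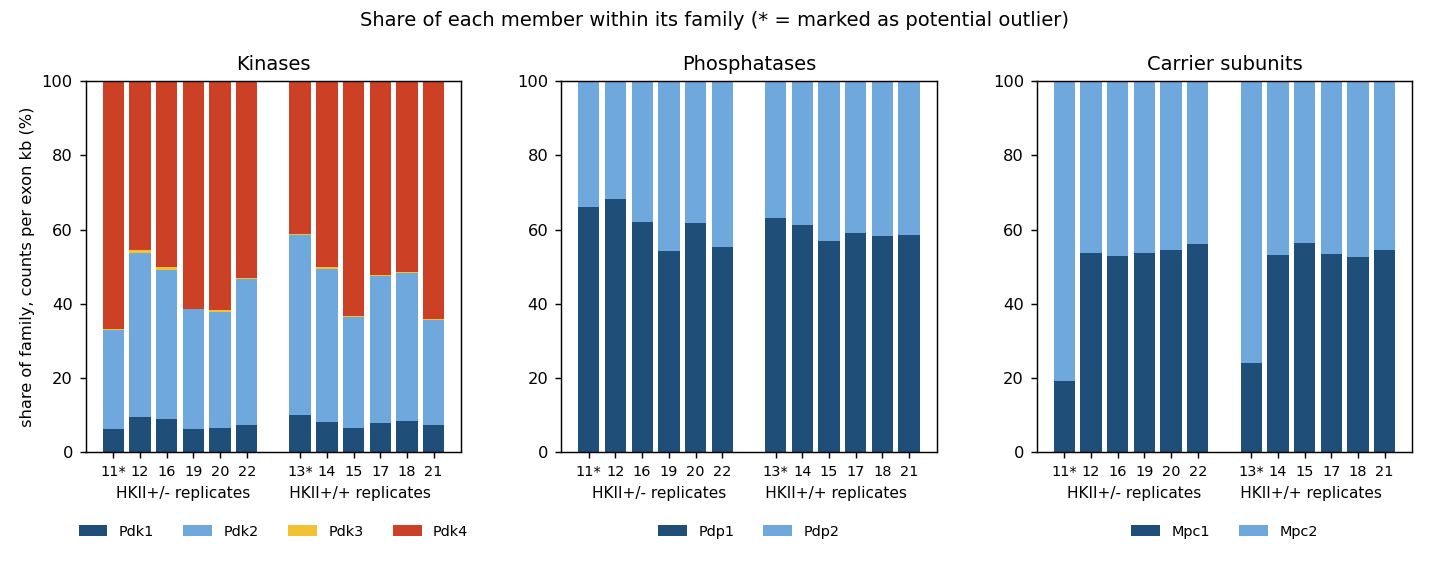
Share of each gene in its family in percent (vertical axis), from counts per kb of merged exons, 1 bar per library with HKII+/- left and HKII+/+ right, for kinases, phosphatases and carrier subunits. Pdk4 is the upper part of the kinase bars, and the Mpc1 part is short in the marked libraries, at 19.1% in HKII+/- replicate 11 and 23.9% in HKII+/+ replicate 13.

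With the marked libraries the shares likewise overlapped. The Pdk4 share was 56.5% ± 8.05 in HKII+/- and 53.8% ± 8.65 in HKII+/+ hearts (SD, n = 6 each; exact permutation p = 0.578 over 924 splits), with the highest value of all libraries, 66.7%, in HKII+/- replicate 11 and the lowest, 41.3%, in HKII+/+ replicate 13. The Mpc1 share was 48.3% ± 14.3 in HKII+/- and 49.0% ± 12.3 in HKII+/+ hearts (exact permutation p = 0.777), and without the marked libraries the SD was 1.21 in HKII+/- and 1.53 in HKII+/+ hearts. The summed kinases exceeded the summed phosphatases per kb by 22.4 to 28.2 times in the 6 HKII+/- libraries and by 21.3 to 33.4 times in the 6 HKII+/+ libraries. In log2 this ratio was 4.67 ± 0.14 in HKII+/- and 4.60 ± 0.25 in HKII+/+ hearts, and without the marked libraries 4.65 ± 0.15 in HKII+/- and 4.63 ± 0.27 in HKII+/+ hearts. The difference was 0.073 with 12 libraries and 0.020 with 10, and 0.036 to 0.17 with single libraries left out of the 12. It is given without a test because it is a score over these genes.

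Genes around this gate gave no call between the genotypes. Of 13 genes of the pyruvate dehydrogenase complex, its lipoylation and its relatives, 0 passed in either direction with 12 or 10 libraries in edgeR, and 0 had an unadjusted p below 0.05. The median log2 fold change of the 13 was -0.10 with 12 libraries and -0.04 with 10, beside -0.001 and -0.005 over all genes tested. Those with the smallest p without the marked libraries were Lias, the lipoic acid synthase (40.8 ± 2.52 CPM over HKII+/- libraries against 43.8 ± 3.15 CPM over HKII+/+ libraries, log2 fold change -0.10, adjusted p = 0.9999), and Bckdk, the kinase of branched-chain ketoacid dehydrogenase (-0.06, adjusted p = 0.9999). Of 14 tested genes of pyruvate supply and its other fates, 0 passed in either direction and 0 had an unadjusted p below 0.05 in both sets. Me2, a mitochondrial malic enzyme, stood at 11.9 ± 0.265 CPM in HKII+/- hearts, against 13.3 ± 1.37 CPM in HKII+/+ hearts (log2 fold change -0.16, SE 0.08). Slc16a1, the lactate and pyruvate transporter MCT1, stood at 391 ± 35.2 CPM in HKII+/- hearts, against 358 ± 25.0 CPM in HKII+/+ hearts (0.13, SE 0.07).

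Regulators and co-responders of Pdk4 gave no call either. Of 17 genes known to act on Pdk4 or Pdk1, such as Ppara and Foxo1, 0 passed in either direction in both sets and 0 had an unadjusted p below 0.05. Esrrg, an oestrogen-related receptor that acts on energy genes, stood at 56.6 ± 4.23 CPM in HKII+/- hearts, against 62.6 ± 6.16 CPM in HKII+/+ hearts (log2 fold change -0.14, SE 0.07), and Nr1d1, a repressor of the circadian clock, at 136 ± 28.9 CPM in HKII+/- hearts, against 172 ± 45.5 CPM in HKII+/+ hearts (-0.34, SE 0.19; n = 5 each). Of 24 other genes responsive to PPAR-alpha, fasting or glucocorticoids, 0 passed in either direction in both sets and 0 had an unadjusted p below 0.05. Zbtb16, a glucocorticoid-induced transcription factor, stood at 179 ± 46.4 CPM in HKII+/- hearts, against 150 ± 30.3 CPM in HKII+/+ hearts (log2 fold change 0.25, SE 0.18). The median log2 fold changes of these lists with 10 libraries were -0.01 and -0.03.

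Genes whose level followed each member most closely over the 10 unmarked libraries were sought by Pearson correlation of log2 CPM among 9392 genes with a mean log2 CPM of at least 3. They are the highest of many and share libraries and tissue makeup, so the values are a description without a p. For Mpc2 they were Hadhb and Acadm, enzymes of fatty acid oxidation, and Ndufa5, a complex I subunit (r = 0.98 each, Spearman's rho 0.94 to 0.96, and r = 0.97 to 0.98 without the 2 libraries farthest from the Mpc2 median). For Mpc1 they were Pde4dip, the Z-disc protein gene Actn2 and the proteasome gene Psmc3 (r = 0.97 to 0.98; 0.95 to 0.97 without the 2 farthest libraries). For Pdk3 they were Npr3, a natriuretic peptide receptor, Gpx3, an extracellular glutathione peroxidase, and Spock2 (r = 0.98 each, and 0.90 to 0.95 without the 2 libraries farthest from its median). For Pdk2 they included Spryd4 and Lrrc47 (r = 0.96 to 0.98; 0.85 to 0.87 without the 2 libraries farthest from its median). Pdk4 had the loosest company, Nsmce2, Wbscr22 and Pdcd6 at r = 0.87 each (0.76 to 0.85 without the 2 farthest libraries). Pdk1 was followed by Vps8, Cul4a and Cast, Pdp1 by Mir143hg, Orai3 and Mcm7, and Pdp2 by Slc35e4, Nelfcd and Pex16 (r = 0.93 to 0.96 over these 9). Without the 2 farthest libraries the values were 0.79 to 0.86 for Pdk1, 0.86 to 0.95 for Pdp1 and 0.75 to 0.79 for Pdp2. With the marked libraries added the figures changed sign for some, as for Mpc1 and Actn2 (r = -0.83 over 12) and Mpc2 and Hadhb (-0.67), and not for others, as for Mpc2 and Ndufa5 (0.96) and Pdk1 and Vps8 (0.98).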

How the data were processed

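Per the labels, poly(A) RNA gave single-end reads 100 nt long. STAR 2.4.0, featureCounts 1.4.4, mm10 and GRCm38 appear in the submitters' processing notes. The authors deposited whole-number counts per gene symbol. Strand setting and annotation release: not given in the sources used here. Counts were tested in edgeR 4.0.16 (R 4.3.3; TMM, filterByExpr at a minimum count of 10, glmQLFit and glmQLFTest, Benjamini-Hochberg over all tested genes), HKII+/- over HKII+/+, with 95% intervals. CPM use the TMM factors of the 12 libraries. DESeq2 1.42.0, limma 3.58.1 and other scalings, filters and library sets were alternatives, and simulated counts with known changes were run through the same code beforehand. Shares used merged exon lengths (GENCODE vM21, GRCm38) and exact permutation tests. Start-site windows are from RefSeq (GRCm38.p6). Libraries are taken as separate animals from their separate titles; if not, the p-values measure technical spread. No 2 libraries of a genotype agreed within sampling noise (lowest chi-square per degree of freedom 7.03). Named genes are the 8 members, Hk2, the 2 with the smallest p in each fixed list, and the 3 most correlated with each member; 2 genes that this rule names are not reported here. The members and lists were chosen with earlier results of these data known.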

Additional observations from a re-analysis of the deposited data

Results flagged for a closer look

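Of 60 groups of libraries examined for a value far from the rest (Dixon's test, which chance alone passes in about 1 of 20 groups), 7 held one. All 7 values are in the libraries that the submitters had already marked and that stand apart across the transcriptome, so they describe those libraries and are no independent evidence on these genes. In HKII+/- replicate 11, Pdk1 measured 141 CPM (nearest other HKII+/- library 225 CPM) and Mpc1 measured 20.8 CPM (nearest 72.7 CPM). In HKII+/+ replicate 13, Pdk2 measured 366 CPM (nearest other HKII+/+ library 446 CPM), Mpc1 36.3 CPM (nearest 73.7 CPM) and Mpc2 407 CPM (nearest 266 CPM). The Mpc1 share of carrier transcripts was 19.1% in HKII+/- replicate 11 (nearest 52.8%) and 23.9% in HKII+/+ replicate 13 (nearest 52.7%).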

How the results depend on the processing

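No alternative called any of the 8 genes between the genotypes (lowest adjusted p = 0.706 in edgeR without HKII+/- replicates 19 and 22, and 0.888 when single libraries were left out of the 12), and no alternative gave a share an exact permutation p below 0.177. Signs of differences near 0 did turn, and the cause was not tested. Genes called with 12 libraries were 0, and 2 in limma voom with quality weights; with 10 they were 1, 3 in DESeq2, and 0 to 2 with single libraries left out. With 12 libraries the log2 fold change of Pdk3 was -0.013 in limma voom, and that of Pdk4 was -0.0013 with library totals, -0.012 with quality weights and -0.037 with the atrial covariate. With 10, quality weights gave -0.027 for Pdk2, 0.023 for Pdk3 and -0.014 for Mpc1. The atrial covariate gave -0.032 for Pdk2, 0.22 for Pdk3 and -0.066 for Mpc1. Leaving out HKII+/- replicates 19 and 22 gave -0.070 for Pdk2, 0.41 for Pdk3 and -0.096 for Mpc1. Mpc1 was -0.0053 with upper-quartile factors, -0.0040 with totals and -0.0022 in limma voom. As a log ratio to the other kinases Pdk3 differed by -0.10. Without replicates 19 and 22 the atrial slopes were 0.028 for Pdk2, 0.15 for Pdk4 and 0.13 for Pdp2. The atrial slopes, that library set, the RefSeq-matched lengths and the alternatives for Hk2 were chosen after seeing the data. With single libraries left out of the 12, log2 fold changes ran -0.18 to 0.14 for Mpc1, -0.16 to 0.070 for Mpc2, -0.15 to 0.0050 for Pdk1, -0.12 to 0.094 for Pdk2, -0.052 to 0.26 for Pdk3, -0.11 to 0.17 for Pdk4, -0.088 to 0.039 for Pdp1 and -0.24 to 0.0065 for Pdp2. Left out of the 10, they ran -0.056 to 0.038 for Mpc1, -0.046 to 0.021 for Mpc2, -0.098 to -0.013 for Pdk1, -0.034 to 0.071 for Pdk2, -0.20 to 0.19 for Pdk3, -0.20 to 0.041 for Pdk4, -0.076 to -0.012 for Pdp1 and -0.22 to 0.016 for Pdp2. Share differences, HKII+/- minus HKII+/+ in percentage points, ran -5.71 to 5.14 for Mpc1, -1.04 to -0.26 for Pdk1, -4.05 to 0.018 for Pdk2, -0.00049 to 0.11 for Pdk3, 0.21 to 4.88 for Pdk4 and 0.31 to 3.15 for Pdp1 with the 12, and -0.33 to 0.74 for Mpc1, -0.46 to 0.36 for Pdk1, -0.029 to 3.37 for Pdk2, -0.042 to 0.10 for Pdk3, -3.68 to 0.37 for Pdk4 and -0.50 to 3.05 for Pdp1 with the 10. Atrial slopes ran -0.058 to -0.042 for Mpc1, -0.051 to -0.033 for Mpc2, -0.029 to -0.0030 for Pdk1, -0.055 to -0.026 for Pdk2, 0.27 to 0.32 for Pdk3, -0.12 to -0.027 for Pdk4, -7.7e-05 to 0.023 for Pdp1 and -0.12 to -0.050 for Pdp2. No paired analysis was possible because no replicate number recurs between the genotypes. Depth limits Pdk3 most, at 22 to 231 counts.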
